A study of Saccharomyces cerevisiae with 36 samples.

Results

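The mitochondrial pyruvate carrier and the pyruvate dehydrogenase complex bring pyruvate into the mitochondrial matrix and convert it to acetyl-CoA. Their mRNAs were followed here through 10 genes of Saccharomyces cerevisiae, out of 5449 genes measured. The 10 are the carrier genes MPC1, MPC2 and MPC3, the complex subunit genes PDA1, PDB1, LAT1, LPD1 and PDX1, and the kinase genes PKP1 and PKP2, taken by symbol from the probe annotation. They form 1 pathway, and MPC3 was selected on its change between IC20 and control in these same arrays, so its values are a description with no test. The other 9 genes have the p-values of a fit over all genes.

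The strain was BY4741, a haploid of mating type MATa that lacks HIS3, LEU2, MET17 (also called MET15) and URA3, and all 12 groups share these deletions. Exponential cells in minimal medium received 1 of 6 pesticides for 2 h at its IC20, a dose the submitters describe as equitoxic, or medium without it. In mg/L, the dose was 20 for pyrimethanil, 80 for diuron, 115 for MCPA-ME, 160 for carbofuran, 200 for alachlor and 220 for S-metolachlor. Every pesticide had control cultures of its own, run together with the exposed ones, and each of the 12 groups has 3 biological replicates on Affymetrix Yeast Genome 2.0 arrays. Pyrimethanil is a fungicide and carbofuran an insecticide, MCPA-ME is the methyl ester of a herbicide, and the rest are herbicides. Titles in the alachlor IC20 group end in an unexplained (2).

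The carrier is a heterodimer in the inner mitochondrial membrane. In yeast Mpc1 pairs with Mpc2 in fermenting cells and with Mpc3 in respiring cells. In the matrix, Pda1 and Pdb1 form the E1 enzyme that decarboxylates pyruvate, Lat1 is the E2 acetyltransferase, and Lpd1 is the E3 dihydrolipoamide dehydrogenase, held to the core by the binding protein Pdx1. The kinases Pkp1 and Pkp2 phosphorylate Pda1 and so switch the complex off, and the phosphatases Ptc5 and Ptc6 remove that phosphate.

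The arrays carried the marks of the strain. URA3 stayed between 6.09 and 24.4 intensity units and MET17 between 9 and 68.2 on the 36 arrays, and LEU2 between 67.0 and 195. The 6 genes specific to MATa cells read between 982 (BAR1, lowest) and 25390.23 (MFA2, highest) over all arrays. Of the 4 genes specific to MATalpha cells, MFALPHA1, MFALPHA2 and STE3 read at most 63.0, 237 and 249.62, whereas SAG1 read 483 to 1736. The median intensity of an array ran from 1319.58 to 1511.4. The spread of arrays around their group mean over all genes was widest for MCPA-ME, with a residual SD of 0.26 log2 units in its controls and 0.35 in its IC20 group. The carbofuran IC20 group had 0.26, and the other 9 groups had 0.10 to 0.19. Each of the 10 genes had 1 probe set, and the lowest value of any of them on any array was 148 units, above the floor of 32 that was set before logarithms were taken. Intensities of different probe sets are not on a common scale, so levels are compared only within a gene.

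MPC3 was higher at the IC20 than in the control with every pesticide, and all 3 exposed cultures lay above all 3 controls with 5 of the 6 pesticides, the exception being diuron. Of all genes, the share with exposed values all above the controls was 17.2% with alachlor, 24.5% with S-metolachlor, 21.2% with diuron, 10.9% with MCPA-ME, 16.8% with pyrimethanil and 25.5% with carbofuran. The mean log2 increase was 3.85 with S-metolachlor, 2.18 with alachlor, 1.55 with MCPA-ME, 1.45 with pyrimethanil, 1.39 with carbofuran and 0.57 with diuron. Ranked by increase among 5449 genes, MPC3 stood at place 5 with S-metolachlor, 9 with alachlor, 18 with pyrimethanil, 24 with MCPA-ME, 27 with carbofuran and 229 with diuron. The arrays measured RNA pooled over a culture, so a change in every cell and a change in some of the cells cannot be told apart.

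With S-metolachlor the control cultures had MPC3 intensities of 321, 314 and 301, the lowest of any group, and the exposed cultures had 4685, 3713 and 5189.6, a 14.4-fold difference. With alachlor, whose dose differed, the controls had 889, 916 and 972 and the exposed cultures 4448, 4254 and 3932, a 4.55-fold difference. Both compounds are chloroacetanilide herbicides. Their exposed cultures overlapped in MPC3 level, with means of 4211 ± 261 for alachlor and 4529.5 ± 750.3 for S-metolachlor (SD, n = 3), while their controls did not overlap.

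With MCPA-ME the controls had 2044, 1813 and 2423 and the exposed cultures 6573, 5009.6 and 6895, a 2.93-fold difference. Carbofuran had the highest MPC3 levels of any pesticide in both arms, with 3567, 3836 and 3760.3 in the controls and 9466, 10722 and 9207 after exposure, a 2.63-fold difference. The carbofuran controls lay above every exposed culture of diuron and pyrimethanil. A control of 1 experiment could therefore exceed the exposed cells of another, and each change is read against its own control.

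With pyrimethanil the exposed cultures were close together, at 3112.5, 2915 and 2799 units. Their controls were not, with 1349.65, 1575 and 589, and the pyrimethanil increase fell from 1.45 to 1.01 when control array 3, the lowest, was left out. Within pairs of equal replicate number, which tracked each other in the pyrimethanil and diuron experiments, MPC3 was higher by 1.21, 0.89 and 2.25 log2 units with pyrimethanil. With diuron the controls had 856, 1047 and 1449 and the exposed cultures 1222, 1232 and 2811, so the groups overlapped. The diuron difference was 0.57, or 1.48-fold, and 0.17 without IC20 array 3, the single high one. Within pairs it was positive in all 3, at 0.51, 0.23 and 0.96.

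**Figure D1:**
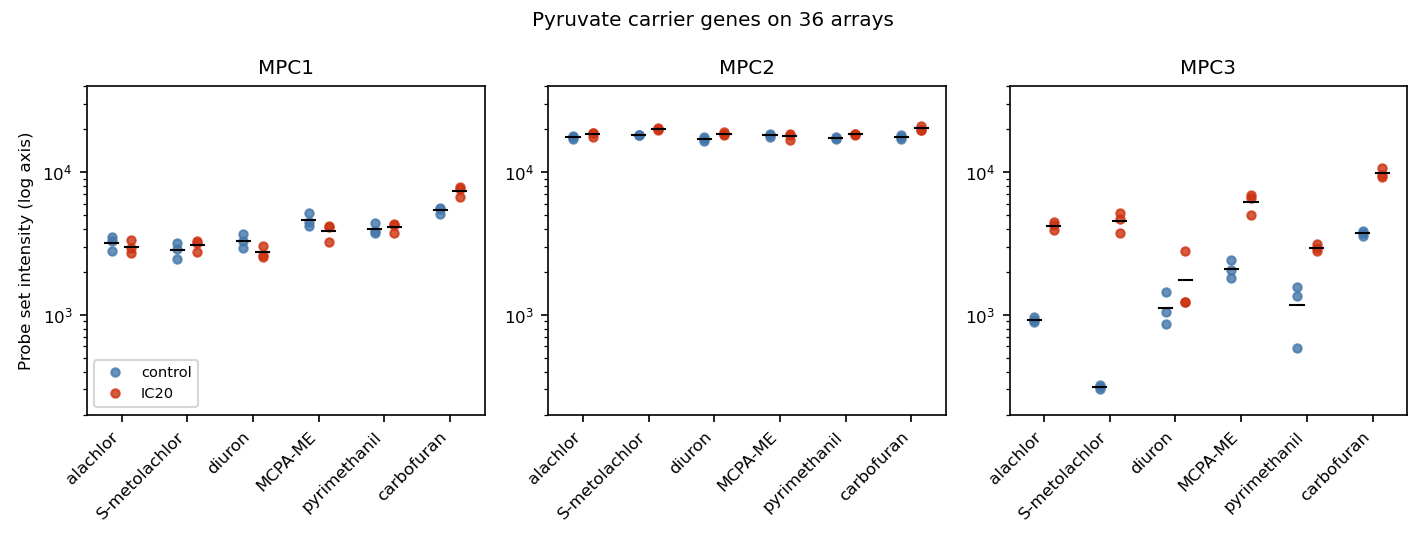
Intensity of the probe sets of MPC1, MPC2 and MPC3 on each of the 36 arrays (log axis), by pesticide, with controls in blue, IC20 cultures in red and a black line at each group mean. MPC3 spans 301 to 10722 units and lies higher at the IC20 with every pesticide, while MPC2 stays between 16591 and 20999 units throughout.

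The untreated level of MPC3 differed widely between experiments. Its control means ran from 312 units with S-metolachlor through 926 with alachlor, 1117 with diuron, 1171 with pyrimethanil and 2093 with MCPA-ME to 3721 with carbofuran. On the log2 scale this is a range of 3.57, or 11.9-fold, which is place 9 among 5449 genes, where the median gene had a range of 0.57. The exposed means spanned 5.58-fold. In order of level, the S-metolachlor controls stood apart below all other groups. The controls of alachlor, diuron, pyrimethanil and MCPA-ME and the diuron IC20 group followed, each overlapping with the next. The pyrimethanil IC20 group and the carbofuran controls came next by mean and did not overlap with each other. The pyrimethanil group overlapped with diuron IC20, whose highest array read 2811 against 2799 for the lowest pyrimethanil one. The IC20 groups of alachlor, S-metolachlor and MCPA-ME came after them, each overlapping with the next by mean, and the lowest S-metolachlor array, at 3713, lay within the carbofuran controls. The carbofuran IC20 group stood above all others without overlap. Set against all 18 controls as 1 group, the MPC3 increase was 3.06 with carbofuran, 2.38 with MCPA-ME, 1.93 with S-metolachlor, 1.84 with alachlor, 1.32 with pyrimethanil and 0.46 with diuron. The order of the pesticides thus depends on the control used, while the sign does not.

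MPC2, which encodes the partner of Mpc1 in fermenting cells, changed by at most 0.20 log2 units. With carbofuran it rose from 17156, 17690.03 and 18027 units to 20999, 19826 and 19778, a change of 0.20 ± 0.04 (SE; limma, adjusted p = 0.000219). With S-metolachlor it rose from 18230.02, 18162 and 18047 to 20262, 19617 and 20063, a change of 0.14 ± 0.04 (limma, adjusted p = 0.0092). The groups did not overlap in either case. With diuron MPC2 rose by 0.12 (limma, adjusted p = 0.0364), but this call was lost when any single array of that experiment except control array 3 was left out, with adjusted p up to 0.163, and in the 6 diuron arrays alone (adjusted p = 0.107). Its changes of 0.07 with alachlor, 0.09 with pyrimethanil and -0.03 with MCPA-ME did not pass the test. With pyrimethanil the groups of MPC2 did not overlap. That difference did pass with median centring (0.15, limma, adjusted p = 0.0354), a floor of 100 (0.0464) and array weights (0.00464). It also passed with 2 arrays far from their groups left out (0.0361). The alachlor difference passed with array weights (0.09, limma, adjusted p = 0.0167).

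The increase of MPC3 exceeded the change of MPC2 with each pesticide, by 3.71 log2 units with S-metolachlor, 2.11 with alachlor, 1.58 with MCPA-ME, 1.35 with pyrimethanil, 1.20 with carbofuran and 0.45 with diuron. This pair was chosen for its difference, so the difference is a description with no test. The control means of MPC2 differed by no more than 1.06-fold between experiments, against 11.9-fold for MPC3 (limma F test over the 6 control groups for MPC2, adjusted p = 0.153). That F test did pass with quantile normalization (0.0356) and with array weights (0.0114). How far intensity stays proportional to RNA for a probe set as bright as that of MPC2 was not tested.

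MPC1 encodes the subunit that every form of the carrier needs. It rose with carbofuran, from 5076, 5625 and 5464 units to 6706, 7635 and 7895, a change of 0.46 ± 0.12 (SE; limma, adjusted p = 0.00319) with no overlap. The other changes of MPC1 were 0.11 with S-metolachlor, 0.04 with pyrimethanil, -0.09 with alachlor, -0.26 with MCPA-ME and -0.27 with diuron, and none passed the test. With diuron MPC1 was lower within all 3 pairs, and with the replicate number as a block its adjusted p went from 0.147 to 0.0492, which takes the diuron count of called genes from 1 to 2. The changes of MPC1 differed among the 6 pesticides (limma F test, adjusted p = 0.00845). Its control means ran from 2842 with S-metolachlor to 5389 with carbofuran, and their order over the 6 experiments was that of MPC3. The level of MPC1 differed among the 6 control groups (limma F test, adjusted p = 1.23e-06).

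**Figure D2:**
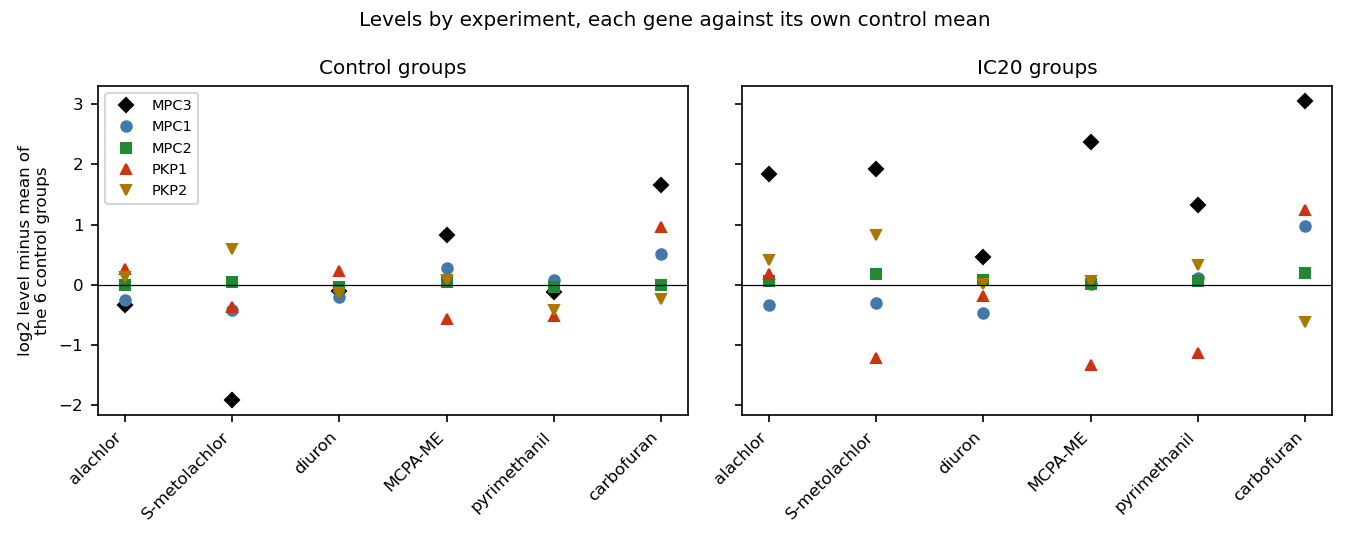
Mean log2 intensity of MPC3, MPC1, MPC2, PKP1 and PKP2 in the 6 control groups (left) and the 6 IC20 groups (right), each point a mean of 3 arrays minus the mean of the 6 control groups for that gene. The IC20 points of MPC3 run from 0.46 with diuron to 3.06 with carbofuran, and its control points span 3.57 log2 units against 0.09 for MPC2.

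Over the 9 genes other than MPC3 and the 6 pesticides, 17 changes passed the test at an adjusted p under 0.05 and 37 did not. With alachlor 1 gene rose, where 5.03% of all genes were called, 3.52% as higher and 1.5% as lower. With S-metolachlor 3 rose and 3 fell, where 24.4% of all genes were called, 10.1% as higher and 14.4% as lower. With diuron 1 rose, where 14.4% of all genes were called, 8.52% as higher and 5.84% as lower. With MCPA-ME 1 rose, where 18.6% of all genes were called, 9.97% as higher and 8.61% as lower. With pyrimethanil 1 rose, where 16.1% of all genes were called, 6.39% as higher and 9.71% as lower. With carbofuran 4 rose and 3 fell, where 42.2% of all genes were called, 18.4% as higher and 23.7% as lower. The median change over the 5 subunits of the complex was 0.07 with alachlor, -0.02 with S-metolachlor, 0.11 with diuron, 0.01 with MCPA-ME, 0.05 with pyrimethanil and 0.02 with carbofuran. The medians over all 5449 genes lay between -0.04 and 0.0047. The increase of MPC3 exceeded the median of the complex by 3.87 with S-metolachlor, 2.12 with alachlor, 1.55 with MCPA-ME, 1.39 with pyrimethanil, 1.37 with carbofuran and 0.46 with diuron.

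**Figure D3:**
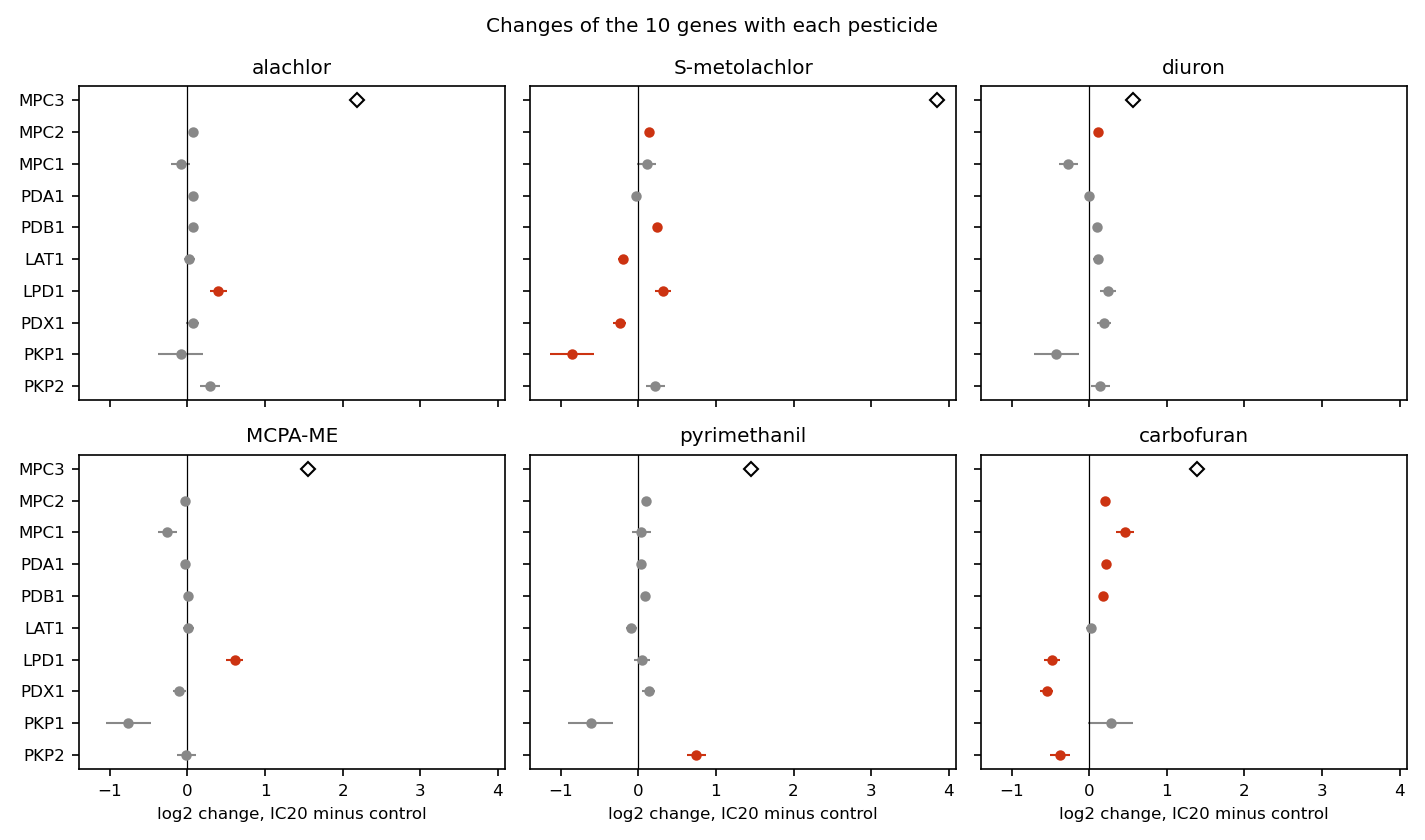
Log2 change, IC20 minus control, of the 10 genes in 1 panel per pesticide (3 arrays a group), with bars of 1 SE from the fit, red points for an adjusted p under 0.05, grey points for the other tested changes and open diamonds for MPC3, which has no test. MPC3 runs from 0.57 to 3.85, whereas the other 9 genes lie between -0.85 and 0.75.

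The genes for the E1 and E2 enzymes moved little in intensity. How far intensity stays proportional to RNA was not tested for these bright probe sets either. PDA1, the E1 alpha subunit that the kinases phosphorylate, rose with carbofuran from 17284, 18788 and 18212 units to 20708, 20631 and 21612, a change of 0.21 ± 0.05 (SE; limma, adjusted p = 0.00215), and against all 18 controls by 0.14, which did not pass (adjusted p = 0.0653). Its other 5 changes lay between -0.03 and 0.07 and did not pass the test. Against all 18 controls PDA1 did pass with alachlor (0.24, limma, adjusted p = 0.00747). PDB1, the E1 beta subunit, rose with S-metolachlor from 14567, 14512 and 14316 to 16689, 17712 and 17028, a change of 0.24 ± 0.05 (limma, adjusted p = 0.000921). It also rose by 0.17 with carbofuran (limma, adjusted p = 0.00842), a call lost in the 6 carbofuran arrays alone (adjusted p = 0.0793), against all 18 controls (0.384), without control array 1 (0.0547) and without IC20 array 3 (0.0575). Against all 18 controls PDB1 passed with alachlor (0.18, limma, adjusted p = 0.026) and pyrimethanil (0.21, adjusted p = 0.00625), where it did not against their own controls. LAT1, the acetyltransferase, fell with S-metolachlor by 0.20, from 11271, 11963 and 11123 to 9989, 10124 and 9814 (limma, adjusted p = 0.0355). That call was lost without any single array of the experiment except control array 3, with adjusted p up to 0.135, and with median centring (0.0505).

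LPD1, the gene for E3, was called in both directions. PDX1, the gene for the protein that anchors E3, was called only lower, and its increases did not pass the test. LPD1 was called higher with MCPA-ME, alachlor and S-metolachlor and lower with carbofuran. With alachlor it went from 7675, 7116 and 7879 units to 9789, 9678 and 10447.5, a change of 0.40 ± 0.10 (SE; limma, adjusted p = 0.0198). The call with alachlor was lost without control array 1 (0.0509), control array 2 (0.115) or IC20 array 3 (0.108). With S-metolachlor LPD1 went from 7189, 8337 and 7735 to 9214, 9815 and 10030.5, a change of 0.32 (limma, adjusted p = 0.0253), lost without control array 1 (0.112), control array 3 (0.0575), IC20 array 2 (0.0651) or IC20 array 3 (0.094). With MCPA-ME it went from 6434, 8583 and 7219 to 9772, 12790.35 and 11299.84, a change of 0.61 (limma, adjusted p = 0.000126), which did not pass in the 6 MCPA-ME arrays alone (adjusted p = 0.188). In each of these experiments all exposed cultures lay above all controls. With carbofuran LPD1 went from 8012, 8003 and 8353 down to 6891, 5603 and 5124, a change of -0.48 ± 0.10 (limma, adjusted p = 0.000705), again with no overlap. With diuron LPD1 changed by 0.24 with no overlap, which did not pass the test (limma, adjusted p = 0.145). That difference did pass in the 6 diuron arrays alone (0.0142) and with array weights (0.00285).

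The changes of LPD1 differed among the 6 pesticides (limma F test, adjusted p = 4.94e-05), whereas the 6 control groups of LPD1 differed by no more than 1.15-fold (adjusted p = 0.375). With array weights the F test over the control groups of LPD1 did pass (limma, adjusted p = 0.00214). Lpd1 is shared with the alpha-ketoglutarate dehydrogenase and glycine cleavage complexes, so its mRNA does not belong to pyruvate oxidation alone. KGD1 and KGD2, the E1 and E2 of alpha-ketoglutarate dehydrogenase, were called with none of the pesticides by limma, with changes of -0.30 to 0.17 for KGD1 (lowest adjusted p = 0.0589) and -0.22 to 0.12 for KGD2 (0.111). In the 6 arrays of a pesticide alone, KGD1 did pass as lower with S-metolachlor (limma, adjusted p = 0.0252) and pyrimethanil (0.0443). KGD2 did so with S-metolachlor (0.0101). Of the glycine cleavage genes, GCV1 fell by 0.27 and GCV2 by 0.57 with S-metolachlor (limma, adjusted p = 0.0481 for both), where LPD1 rose. With carbofuran, where LPD1 fell, GCV1 fell by 0.25 (adjusted p = 0.0464) and GCV3 by 0.19 (adjusted p = 0.0397).

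PDX1 fell with carbofuran from 2075, 1938 and 2084 units to 1643, 1336 and 1222, a change of -0.55 ± 0.09 (SE; limma, adjusted p = 2.36e-05). With S-metolachlor PDX1 fell by 0.24, from 2070.45, 2051 and 2062 to 1881, 1672 and 1692 (limma, adjusted p = 0.0439). The latter call was lost without any single array of the experiment except IC20 array 1 (adjusted p up to 0.138), with the replicate block (0.0524), with median centring (0.059) and against all 18 controls (-0.05, adjusted p = 0.717). With diuron PDX1 changed by 0.19 with no overlap, which did not pass the test (limma, adjusted p = 0.16). That difference did pass in the 6 diuron arrays alone (0.0255) and with array weights (0.00672). The changes of PDX1 differed among the pesticides (limma F test, adjusted p = 0.000229). LPD1 and PDX1 both fell with carbofuran, while PDA1 and PDB1 rose and LAT1, at 0.02, did not pass.

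Of the kinase genes, PKP2 was called higher with pyrimethanil and lower with carbofuran, and PKP1 was called lower with S-metolachlor. PKP2 rose with pyrimethanil from 827, 917 and 816 units to 1386, 1518 and 1390.01, a change of 0.75 ± 0.12 (SE; limma, adjusted p = 0.000137) with no overlap. By this increase PKP2 stood at place 76 among 5449 genes. The pyrimethanil controls were the lowest of the 6 control groups in PKP2, and against all 18 controls the change was 0.32 (limma, adjusted p = 0.193). With carbofuran PKP2 fell from 896, 987 and 1018 to 818, 712 and 705, a change of -0.38 (limma, adjusted p = 0.0165). This was lost without control array 3 (0.0649), IC20 array 2 (0.0597) or IC20 array 3 (0.0706), and with quantile normalization (0.064) or median centring (0.0544). With S-metolachlor PKP2 changed by 0.22 with no overlap, which did not pass the test (limma, adjusted p = 0.203). That difference did pass in the 6 S-metolachlor arrays alone (0.0159), with array weights (0.0138) and against all 18 controls (0.82, adjusted p = 0.000845). The changes of PKP2 differed among the pesticides (limma F test, adjusted p = 0.000587).

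PKP1 fell with S-metolachlor from 425, 376 and 341 units to 198, 239.78 and 194, a change of -0.85 ± 0.29 (SE; limma, adjusted p = 0.0317) with no overlap. The call was lost without control array 1 (0.104), control array 2 (0.068), IC20 array 1 (0.0874) or IC20 array 3 (0.103), and with quantile normalization (0.0578). PKP1 differences of -0.61 with pyrimethanil, -0.76 with MCPA-ME and -0.43 with diuron did not pass the test. Nor did those of -0.09 with alachlor and 0.28 with carbofuran (limma, adjusted p = 0.459). The groups did not overlap with pyrimethanil, diuron or carbofuran. The carbofuran controls were the highest of the 6 control groups in PKP1. Against all 18 controls the carbofuran difference was 1.24 and did pass (limma, adjusted p = 0.00329). The pyrimethanil difference did pass in its 6 arrays alone (limma, adjusted p = 0.0421), with array weights (-0.67, adjusted p = 0.00129) and against all 18 controls (-1.13, adjusted p = 0.0117), as did that with MCPA-ME against all 18 controls (-1.33, adjusted p = 0.00417). In the MCPA-ME controls PKP1 read 775 units on array 1 against 244 and 192 on the others, and the MCPA-ME difference was -0.15 without array 1 and -1.15 (adjusted p = 0.00362) without array 3. The PKP1 changes were not shown to differ among the pesticides (limma F test, adjusted p = 0.132). That test passed without MCPA-ME control array 1 (0.00318) or control array 3 (0.0214), with array weights (0.00245) and against all 18 controls (3.83e-05). Control means of PKP1 spanned 2.76-fold between experiments and those of PKP2 2.03-fold, and both differed among the control groups (limma F test, adjusted p = 0.0002 and 1.99e-06).

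Over the 9 genes, 5 changed differently among the 6 pesticides, where 43.3% of all genes did, and MPC2 was among them with the highest adjusted p of the 5, 0.0281 by limma. Its call was lost without MCPA-ME control array 3 (0.0629), MCPA-ME IC20 array 2 (0.0546) or carbofuran control array 1 (0.0628). It was also lost with array weights (0.168), with 2 arrays far from their groups left out (0.0974), with 16 added in place of the floor (0.0801) and with the dimmest 25% of genes left out (0.0541). The count was 8 without MCPA-ME IC20 array 1. The control groups differed in 6 of the 9, where 78.9% of all genes did. With array weights MPC2, LAT1 and LPD1 passed that test too (limma F test, adjusted p = 0.0114, 0.000912 and 0.00214).

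The phosphatase genes PTC5 and PTC6 were called in 3 of 12 comparisons. The share of all genes called per pesticide ran from 5.03% with alachlor to 42.2% with carbofuran. PTC5 fell by 0.44 with S-metolachlor (limma, adjusted p = 0.00256) and by 0.35 with pyrimethanil (adjusted p = 0.0202), and PTC6 rose by 0.45 with carbofuran (adjusted p = 0.00319). Among the 3 genes for lipoate, the cofactor that Lat1 carries, LIP2 fell with carbofuran by 0.72 and no other change was called. Of the 6 other genes of lipoyl-dependent complexes, 1 rose and 2 fell with S-metolachlor, 1 rose with MCPA-ME and 2 fell with carbofuran. Of all genes, 10.1% were called higher and 14.4% lower with S-metolachlor, 9.97% higher with MCPA-ME and 23.7% lower with carbofuran. The gene that rose was KGD4, which links E3 to the alpha-ketoglutarate dehydrogenase core, by 0.36 with S-metolachlor and 0.25 with MCPA-ME. Those that fell were the glycine cleavage genes given above with LPD1.

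Lists of pathway neighbours of pyruvate entry and oxidation, other mitochondrial carriers included, held 60 genes in all, every one of which was measured. The phosphatase, lipoate and lipoyl-complex genes above are among the 60. Called higher and lower were 6 and 0 with alachlor, 6 and 16 with S-metolachlor, 8 and 8 with diuron, 6 and 17 with MCPA-ME, 8 and 6 with pyrimethanil and 20 and 5 with carbofuran. The shares of all genes called in each direction are those given above for the 9 genes. In the 6 MCPA-ME arrays alone none of the 60 was called by limma, where 11 had an unadjusted p under 0.05, so every MCPA-ME call in these lists rests on the spread shared over the 36 arrays.

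PDC1, the main pyruvate decarboxylase that sends pyruvate towards ethanol in the cytosol, was called with none of the 6 pesticides by limma, with changes of -0.16 to 0.12 (lowest adjusted p = 0.123). In the 6 S-metolachlor arrays alone PDC1 did pass as lower (-0.12, limma, adjusted p = 0.0339). How far intensity stays proportional to RNA was not tested for the bright PDC1 probe set either. PDC5, its close relative, fell by 0.51 with pyrimethanil (limma, adjusted p = 0.0352). Acetaldehyde dehydrogenase genes, whose products supply acetate outside the complex, moved in opposite directions. ALD4 fell by 1.15 with diuron, 1.20 with MCPA-ME and 0.90 with pyrimethanil and rose by 2.06 with carbofuran. The cytosolic ALD6 followed the same signs, at -0.79, -0.72, -0.76 and 1.12. PYC1, a pyruvate carboxylase, rose with alachlor by 0.68, S-metolachlor by 0.52, diuron by 0.73 and carbofuran by 1.14. Its isoform PYC2 fell by 0.37 with S-metolachlor, 0.36 with diuron and 0.34 with MCPA-ME.

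The citrate synthase genes, whose products use acetyl-CoA, rose together. The share of all genes called higher ran from 3.52% with alachlor to 18.4% with carbofuran. All 3 of CIT1, CIT2 and CIT3 were called higher with every pesticide except S-metolachlor, where CIT1 changed by 0.12 (limma, adjusted p = 0.347) and the other 2 were called. CIT3 rose by 1.30 with carbofuran and by 0.57 to 0.92 with the others. CRC1, the carrier that brings acetylcarnitine into mitochondria, rose with all 6 pesticides, by 2.52 with carbofuran, 1.86 with diuron, 1.54 with pyrimethanil, 1.21 with alachlor, 1.03 with MCPA-ME and 0.99 with S-metolachlor. ODC1, an oxodicarboxylate carrier, rose with every pesticide except pyrimethanil, where its change was 0.20.

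Of the other 27 carrier genes, which include CRC1 and ODC1, 10 rose and 2 fell with carbofuran, and 2 rose and 8 fell with S-metolachlor. Of all genes, 18.4% were called higher and 23.7% lower with carbofuran, and 10.1% and 14.4% with S-metolachlor. PIC2, a phosphate and copper carrier, fell by 1.42 and OAC1, an oxaloacetate carrier, by 0.85 with S-metolachlor. The S-metolachlor control mean of PIC2, 6335, was the highest of the control groups, the others having 1459 to 4963. The exposed mean of PIC2, 2348, lay within the range of those other control means. ORT1, the ornithine carrier, rose by 1.04 with pyrimethanil. The pyrimethanil control mean of ORT1, 1099, was the lowest of the control groups, the others having 1424 to 2718. The exposed mean of ORT1, 2256, lay within the range of those other control means. The 7 genes that turn matrix pyruvate into branched amino acids were all called lower with MCPA-ME in the fit over 36 arrays. Of these genes, 4 were called lower with S-metolachlor and 2 with diuron. Among all genes, MCPA-ME had 8.61% called lower, S-metolachlor 14.4% and diuron 5.84%. For ILV6, BAT1 and LEU9 the MCPA-ME groups overlapped. The MCPA-ME controls of ILV6 varied widely, at 8015 ± 7262 units (SD, n = 3). With pyrimethanil ILV5 rose by 0.25 and ILV3 by 0.22. BY4741, which lacks LEU2, cannot make leucine by this route.

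**Figure D4:**
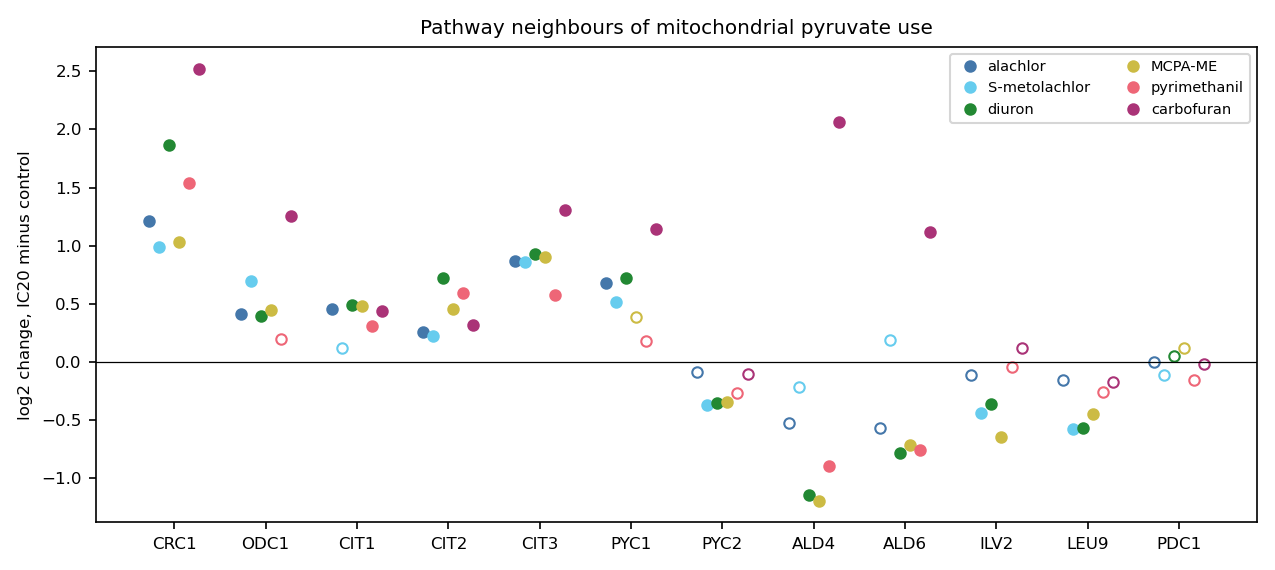
Log2 change, IC20 minus control, of 12 list genes picked after their values were seen, with 1 colour per pesticide, filled points for an adjusted p under 0.05 and open points for the rest. CRC1 lies between 0.99 and 2.52 and is called with all 6 pesticides, and ALD4 runs from -1.20 to 2.06.

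The genes whose log2 intensity ran most like that of MPC3 over the 36 arrays, by Pearson r among 5152 genes with unambiguous and brighter probe sets, were ACB1 (r = 0.87), RPN4 (0.83), RTS3 (0.83), YAP5 (0.82), ICT1 (0.82), DAL1 (0.82), DOG1 (0.80), YFR006W (0.79), OYE2 (0.78) and YOL036W (0.77). The 36 points share 12 group means and 6 experiments, so these values describe likeness and carry no p. ICT1, an acyltransferase gene, changed by 2.92 with S-metolachlor, 2.51 with MCPA-ME, 2.35 with alachlor, 1.91 with diuron, 0.66 with pyrimethanil and 0.21 with carbofuran, where only the last was not called. RPN4, which encodes the activator of proteasome genes, changed by 1.53 with S-metolachlor and 1.15 with alachlor, and by -0.28 with carbofuran, which was not called. With carbofuran the 10 genes changed by -0.28 to 0.75 and 4 of them were called, while MPC3 was higher by 1.39. MPC1 had r = 0.57 with MPC3 at place 186, and 0.89 over the 18 controls. MPC2 had r = 0.54 at place 234, and -0.05 over the 18 controls. The complex subunits had r between -0.34 for PDX1 and 0.20 for PDB1 and LPD1, PKP1 had 0.06 and PKP2 -0.21. The genes most like MPC2 were DAL3 (0.84), MEP2 (0.80), ERG25 (0.74), YFR006W (0.73) and DAD4 (0.72), of which DAL3 and MEP2 serve the uptake and use of nitrogen sources. Over the 18 controls their r with MPC2 was, in the same order, 0.53, -0.11, -0.28, 0.13 and 0.52.

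The genes beside MPC3 in the RefSeq gene order were YAP1802 and LSC2. YAP1802, an endocytic adaptor gene, changed by -0.37 to 0.18 and was called only with pyrimethanil (limma, adjusted p = 0.0339). LSC2, which encodes a subunit of succinyl-CoA ligase, changed by -0.15 to 0.36 and was called with none of the pesticides (limma, lowest adjusted p = 0.0667). Next to MPC2, SOL3 rose by 0.30 with pyrimethanil and by 0.36 with carbofuran. YAP1801, on the other side of MPC2, changed by -0.07 to 0.28 and was called with none of the pesticides (limma, lowest adjusted p = 0.197).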

How the data were processed

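The deposited files hold a linear intensity per probe set, produced by the authors in Affymetrix Expression Console, per the submitters' processing notes. Its version, its probe summary and any between-array normalization were not given in the sources used here. Hot-phenol RNA was labelled with biotin during in vitro transcription (labels' protocols). Of 5716 probe sets, 5498 had 1 gene in the supplied annotation and 218 none. For 47 genes with several probe sets the one with the highest mean over 36 arrays was kept, which gave 5449 genes, and 12 symbols were updated. Intensities were raised to a floor of 32 (1.778% of values lay under it) and taken to log2. No other columns of per-sample values were present (0).

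With limma 3.58.1 (R 4.3.3), a linear model gave each of the 12 groups its own mean and shared the spread over the 36 arrays. Residual degrees of freedom were 24, and 25.81 with moderation. Tests are two-sided, adjusted by Benjamini-Hochberg over the 5449 genes per contrast and called under 0.05. F tests compared the 6 changes and the 6 control groups. The script was tested on simulated data. The members, lists and tests were chosen with earlier results of these data known. Named are the 10 genes. From each list and pesticide, up to 3 called genes without overlap between groups could be named, and PTC5, PTC6, PDC1, PDC5, KGD1, KGD2 and CRC1 in any case. The 10 genes most correlated with MPC3 and the 5 with MPC2 were also named. Genes named outside this rule, such as chromosomal neighbours and some values of ALD6, PYC2 and ODC1, were chosen after their values were seen. Arrays carry no counts, so their number limits the precision.

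Equal replicate numbers deviated together in every pair for diuron (r from 0.352 to 0.402) and pyrimethanil (0.173 to 0.38), but not for alachlor (-0.711 to 0.214), S-metolachlor (0.047 to 0.286), MCPA-ME (0.027 to 0.409) or carbofuran (0.001 to 0.486). Alternatives were quantile normalization, median centring, adding 16 in place of the floor, a floor of 100, leaving out the dimmest 25% of genes, all named probe sets, fits of 6 arrays at a time, the replicate block, pooling of all 18 controls, array weights, leaving out 2 arrays known from earlier results to lie far from their groups over all genes (array 1 of carbofuran IC20 and array 2 of MCPA-ME IC20), and leaving out each array in turn. No sequences are shown.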

Additional observations from a re-analysis of the deposited data

Results flagged for a closer look

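For 5 genes the change differed between pesticides by limma's F test of the difference itself, adjusted over all genes. LPD1 had an adjusted p of 4.94e-05, with changes from -0.48 with carbofuran to 0.61 with MCPA-ME. PDX1 had 0.000229, from -0.55 with carbofuran to 0.19 with diuron. PKP2 had 0.000587, from -0.38 with carbofuran to 0.75 with pyrimethanil. MPC1 had 0.00845, from -0.27 with diuron to 0.46 with carbofuran. MPC2 had 0.0281, from -0.03 with MCPA-ME to 0.20 with carbofuran. Leaving out each array in turn kept the first 4 under the threshold, with adjusted p up to 0.000313 for LPD1, 0.00106 for PDX1, 0.00217 for PKP2 and 0.0301 for MPC1. MPC2 reached 0.0629, and 0.168 with array weights. Dixon's test for an outlying array was not applied to single genes, since each group has 3 arrays.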

How the results depend on the processing

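No alternative turned the direction of any of the 17 called changes. Besides leaving out arrays, 8 of the 17 held in all 11 settings and 9 were lost in at least 1, and 9 held without each array in turn. The counts of called genes among the 9 moved as follows. For diuron (1) the count was 0 with quantile normalization, median centring, 16 added, the dimmest genes left out and all 18 controls as 1 group, where 4, 3, 4, 4 and 2 genes had an unadjusted p under 0.05 by limma. It was 2 in the 6 arrays alone and with the replicate block, and 8 with array weights. For pyrimethanil (1) it was 2 with median centring, the floor of 100, the 6 arrays alone, all 18 controls and 2 arrays left out, and 4 with array weights. For MCPA-ME (1) it was 0 in the 6 arrays alone (1 with an unadjusted p under 0.05), 2 with all 18 controls and 3 with the block, which added MPC1 (-0.26, adjusted p = 0.0495) and PKP1 (-0.76, adjusted p = 0.0426), though MCPA-ME arrays of equal number were not shown to pair. For alachlor (1) it was 3 with all 18 controls and with array weights. The number of genes whose change differed among pesticides (5) was 9 with all 18 controls and 8 with array weights. The block changed no other count by over 1.5 times.

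With all 18 controls the MPC3 increase was 1.84 with alachlor, 1.93 with S-metolachlor, 2.38 with MCPA-ME and 3.06 with carbofuran, and MPC3 minus MPC2 was 1.78, 1.75, 2.36 and 2.86. With array weights the MCPA-ME values were 1.79 and 1.77. Leaving out single arrays gave counts of 0 to 1 for alachlor and for diuron, 1 to 2 for MCPA-ME, 2 to 4 for S-metolachlor (6), 5 to 7 for carbofuran (7) and 4 to 8 for differing changes.

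Some changes that did not pass the test changed sign. With quantile normalization these were PDB1 (-0.03) and PKP2 (0.01) with MCPA-ME and LAT1 with carbofuran (-0.02). With median centring they were LAT1 with alachlor (0), PDA1 with S-metolachlor (0), and MPC2 (0.01), PDA1 (0) and PKP2 (0.03) with MCPA-ME. With all 18 controls they were PDX1 (-0.04) and PKP1 (0.18) with alachlor, MPC1 with S-metolachlor (-0.31), MPC1 (0.02), MPC2 (0.02), PDB1 (-0.02), LAT1 (-0.05) and PKP2 (0.07) with MCPA-ME, and LPD1 (-0.04) and PDX1 (-0.11) with pyrimethanil. With array weights they were MPC2 with MCPA-ME (0.02) and PDA1 with pyrimethanil (0). With 2 arrays left out they were MPC2 (0.01) and PKP2 (0.11) with MCPA-ME and LAT1 with carbofuran (0). With 1 array left out, LAT1 ran from 0 to 0.04 with carbofuran and from -0.08 to 0.1 with MCPA-ME, LPD1 from -0.03 to 0.16 and MPC1 from -0.01 to 0.11 with pyrimethanil, and PDA1 from -0.03 to 0.01 with diuron, -0.08 to 0.03 with MCPA-ME and -0.02 to 0.08 with pyrimethanil. MPC2 ran from -0.05 to 0.01, PDB1 from -0.04 to 0.06, PDX1 from -0.2 to 0.02 and PKP2 from -0.12 to 0.14 with MCPA-ME, and PKP1 from -0.21 to 0.02 with alachlor. The causes were not tested.

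Of the 60 list genes, the alachlor count (6) was 12 in the 6 arrays alone, 13 with all 18 controls and 16 with array weights. The MCPA-ME count (23) was 0 in the 6 arrays alone (11 with an unadjusted p under 0.05). With array weights the counts were 41 for S-metolachlor (22), 30 for diuron (16) and 30 for pyrimethanil (14). F tests over pesticides were not run on 6 arrays, nor that of the controls with the block or with all 18 controls as 1 group. With 3 arrays per group, changes within the spread between arrays could not be resolved.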
